A study of Mus musculus with 7 samples.

Results

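Lrat and 8 further genes of retinoid (vitamin A) metabolism were followed in skin from the edge of day 5 wounds: the carrier gene Rbp4, the binding protein genes Crabp1 and Crabp2, the dehydrogenase genes Aldh1a1, Aldh1a2, Aldh1a3 and Rdh10, and the hydroxylase gene Cyp26b1. All 9 genes were on the array, in 13 probe sets (sets of short probes read as 1 value) that are annotated to exactly 1 of these symbols, out of 45037 probe sets. The mice were C57BL/6 in both groups, 3 MFG-E8 WT animals (numbers 2, 3 and 4) and 4 MFG-E8 KO animals (numbers 8, 10, 11 and 12), and each animal had its own array of total RNA. MFG-E8 is a secreted bridging protein through which phagocytes bind dying cells. The labels name no further allele, agent, sex or age, and how the gene was disrupted is not given in the sources used here.

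The genes were chosen by their role in the pathway and by KO-minus-WT differences already seen on these arrays, above all that of Lrat. The differences between genotypes below are therefore a description, with no test of their own. All values are log2 values from which the submitters had subtracted 1 unknown constant per probe set, so 0 has no meaning as a level and values can be compared between animals but not between probe sets. In whole wound-edge tissue, fewer cells of a type and less RNA per cell cannot be told apart.

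Vitamin A circulates as retinol bound to RBP4, which travels with transthyretin (Ttr), and enters many cells through the receptor STRA6. LRAT, lecithin retinol acyltransferase, stores it as retinyl esters. RDH10 oxidises retinol to retinaldehyde, a reversible step, and the ALDH1A enzymes oxidise retinaldehyde irreversibly to retinoic acid. CRABP1 and CRABP2 bind retinoic acid in the cytoplasm, the nuclear receptors RAR and RXR carry its effect on transcription, and CYP26B1 breaks it down. In skin, retinoic acid is known to affect keratinocyte differentiation, the hair cycle and sebaceous glands.

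Promoter sequence is shown for Lrat, the gene with the largest difference between genotypes, and for Rbp4 and Aldh1a1, the only genes among the 9 with a receptor half-site in a window searched. The windows are the 250 bases before a RefSeq transcript start in build GRCm38.p6, 5′ to 3′ on the gene's strand. Capitals mark a half-site of the retinoic acid receptor element, which was searched on both strands as the letters AGGTCA and its variant forms AGTTCA, followed by GGGTCA and lastly by GGTTCA.
Lrat, chr3:82903975-82904224, minus strand: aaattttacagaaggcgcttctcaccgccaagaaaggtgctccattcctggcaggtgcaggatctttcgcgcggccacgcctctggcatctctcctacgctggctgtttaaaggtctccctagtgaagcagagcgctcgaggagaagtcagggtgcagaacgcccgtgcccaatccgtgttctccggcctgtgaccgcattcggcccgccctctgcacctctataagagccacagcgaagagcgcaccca
Rbp4, chr19:38125322-38125571, minus strand: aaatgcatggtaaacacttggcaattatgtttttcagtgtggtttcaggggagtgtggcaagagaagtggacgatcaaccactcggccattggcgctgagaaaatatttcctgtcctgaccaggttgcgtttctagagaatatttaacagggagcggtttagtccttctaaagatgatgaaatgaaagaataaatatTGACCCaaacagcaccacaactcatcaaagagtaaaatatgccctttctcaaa
Aldh1a1, chr19:20601718-20601967, plus strand: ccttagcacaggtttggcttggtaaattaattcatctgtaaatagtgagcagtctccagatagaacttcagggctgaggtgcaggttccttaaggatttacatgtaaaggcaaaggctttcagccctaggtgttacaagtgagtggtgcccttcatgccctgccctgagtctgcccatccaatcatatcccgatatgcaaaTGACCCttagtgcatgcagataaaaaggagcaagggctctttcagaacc

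The Lrat window held none of these half-sites. Those shown of Rbp4 and Aldh1a1 each held 1, on the opposite strand, beginning 53 and 49 bases before the start. The window at the other start of each of these genes held none. RefSeq sequences were at hand for 8 windows of 6 of the 9 genes (Lrat, Cyp26b1, Crabp1, Aldh1a2, and 2 starts each of Aldh1a1 and Rbp4), and 2 of the 8 windows held a half-site, against 38.6% of all 32851 promoter windows of the same length. None (0) of the 8 held a direct repeat of half-sites with 1, 2 or 5 bases between them, which 0.43% of all windows did. A match is a stretch of letters and not a bound site.

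Array medians lay between -0.0042 and 0.0121. Mfge8 itself fell in KO (KO minus WT log2 -1.90, SE 0.16, limma adjusted p = 0.00875), with KO animals at -1.30 to -0.64 and WT animals at 0.76 or above in its 1 probe set. Skin markers were present: the rounding of the stored values placed the signal at log2 8 or above for 10 of 11 measured epidermal keratinocyte genes and 8 of 9 fibroblast genes. KO animals 8 and 10 stood apart in hair genes. The mean of 24 measured hair shaft and inner sheath genes was 3.78 and 3.83 in these animals, -2.03 and -0.78 in KO animals 11 and 12, and 0.67, -1.49 and -2.34 in WT animals 2, 3 and 4. Differences are therefore also given for KO animals 11 and 12 alone against the WT animals.

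Lrat was higher in KO in both of its probe sets (Entrez gene 79235, chromosome 3). In probe set 1421345_at the WT animals 2, 3 and 4 had values of -0.30, -1.30 and -0.94, and the KO animals 8, 10, 11 and 12 had 0.97, 0.51, 0.38 and 0.30. Every KO animal thus lay above every WT animal, with 0.61 between the groups. WT animals averaged -0.85 ± 0.51 (SD, n = 3) and KO animals 0.54 ± 0.30 (SD, n = 4), a difference of log2 1.39 (SE 0.25), or 2.62-fold.

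The second Lrat probe set, 1444487_at, had -0.07, -1.02 and -0.68 in WT animals 2, 3 and 4 and 0.96, 0.84, 0.07 and 0.24 in KO animals 8, 10, 11 and 12. The groups again did not overlap, though only 0.14 lay between WT animal 2 and KO animal 11. The difference was log2 1.12 (SE 0.28). The pair of probe sets ordered the animals alike in the main: WT animal 3 was lowest and KO animal 8 highest in each, and after each probe set's mean was subtracted the readings of an animal differed by at most 0.41.

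Within KO, Lrat was highest in the animals with high hair genes. Over both probe sets its gene value was 0.96 and 0.67 in KO animals 8 and 10, and 0.22 and 0.27 in KO animals 11 and 12. In WT animals 2, 3 and 4 it was -0.19, -1.16 and -0.81. KO animals 11 and 12, with hair list means within the WT range, lay above all WT animals in Lrat, which was chosen for its difference. For these 2 animals alone the KO-minus-WT difference was log2 1.19 in the first probe set and log2 0.75 in the second. With the hair list mean as a covariate it was log2 1.16 (SE 0.23) and 0.76 (SE 0.18). The highest hair list means, 3.78 and 3.83, occurred only in KO, so this covariate cannot fully separate hair content from genotype. The 5 melanocyte genes were split in the same way, with means of 2.82 and 2.00 in KO animals 8 and 10 and -1.44 and -0.85 in KO animals 11 and 12. The mean of 11 epidermal keratinocyte genes was 0.07, -0.27 and -0.01 in WT animals 2, 3 and 4. In KO animals 8, 10, 11 and 12 it was -0.50, -0.07, 0.40 and 0.39. For 6 sebaceous gland genes the means were 0.15, -0.27 and 0.03 in WT and -0.25, -0.08, 0.27 and 0.57 in KO. KO animals 11 and 12 were thus the highest in both lists. The part of hair, pigment, keratinocyte and sebaceous cell content in the Lrat difference was not tested beyond these values.

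**Figure D1:**
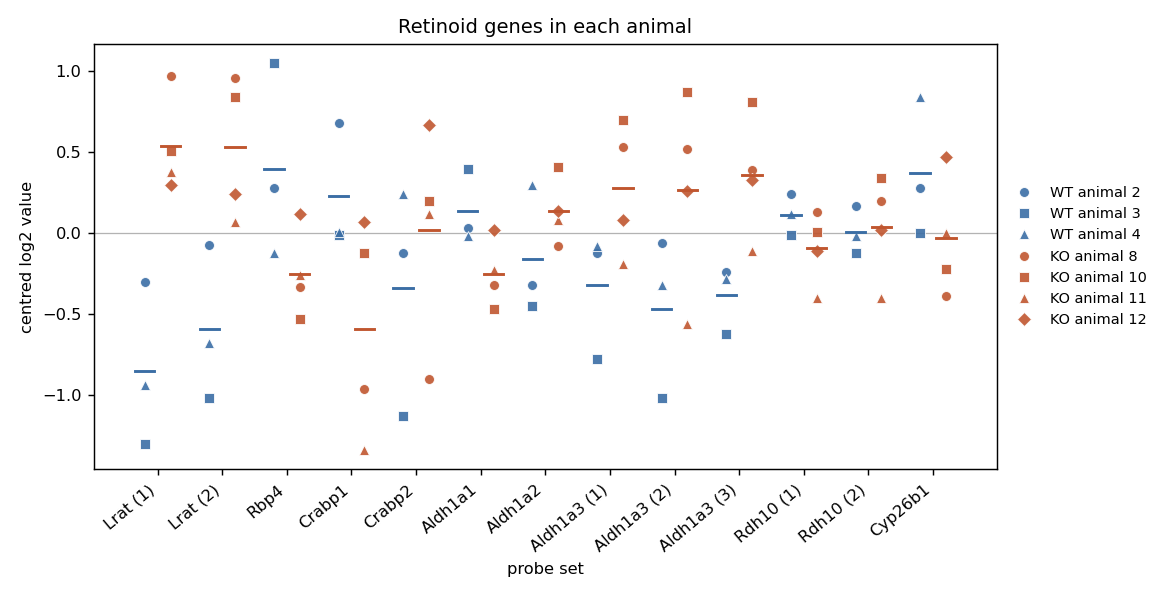
Centred log2 value (vertical axis) of each of the 13 probe sets in each animal, WT in blue and KO in orange, with a horizontal bar at each group mean (n = 3 and n = 4). Numbers in brackets follow the order in which the probe sets of Lrat, Aldh1a3 and Rdh10 are described in the text. In both Lrat probe sets and the third of Aldh1a3, every KO point lies above every WT point, while the groups overlap in the others.

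The RBP4 carrier and the retinol dehydrogenase gave different pictures. Rbp4 (probe set 1426225_at, Entrez gene 19662, chromosome 19) read 0.28, 1.05 and -0.12 in WT animals 2, 3 and 4 and -0.33, -0.53, -0.26 and 0.12 in KO animals 8, 10, 11 and 12. The groups overlapped, since KO animal 12 lay above WT animal 4, and WT animal 3 stood far above all others. The difference was log2 -0.65 (SE 0.27), log2 -0.33 without WT animal 3, and log2 -0.47 for KO animals 11 and 12 alone. It was log2 -0.91 without WT animal 4 and log2 -0.91 with quantile normalization.

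Markers of several other tissues and cells were read beside Rbp4, which liver and fat are known to make. The 4 measured liver genes of the list (Alb, Apoa1, Ttr and Cyp2e1) were all lower in KO on average, with list means of -0.42 to 1.37 in WT and -0.67 to 0.24 in KO. WT animal 3 had the highest mean of this list (1.37) and of 7 adipocyte genes (0.65, against -0.62 to 0.08 in the other animals), but WT animal 2, second highest in Rbp4, had the lowest adipocyte mean (-0.62). Albumin transcript (Alb), which defines hepatocytes, read 2.24 and 2.76 in WT animals 2 and 3 and -0.59 to 0.14 in the other animals. Cyp2e1 differed from this, with -0.02, 0.52 and -1.28 in WT animals 2, 3 and 4. In KO animals 8, 10, 11 and 12 it read -2.07, -1.60, 0.38 and 0.02. For KO animals 11 and 12 alone Cyp2e1 was at log2 0.46, and Alb, Apoa1 and Ttr at -1.57, -0.63 and -0.54. The 10 endothelial genes were lower in KO on average in 10 of 10, with list means of 0.13, 0.61 and 0.26 in WT animals 2, 3 and 4 and -0.57 to -0.12 in KO. The part of these markers in the Rbp4 difference was not tested.

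Rdh10 (Entrez gene 98711, chromosome 1), which makes the retinaldehyde that ALDH1A enzymes use, differed little. Probe set 1426968_a_at read -0.01 to 0.24 in WT and -0.40 to 0.13 in KO, with a difference of log2 -0.21 (SE 0.15) that was -0.37 for KO animals 11 and 12 alone and -0.11 without KO animal 11. Probe set 1460632_at read -0.12 to 0.17 in WT and -0.40 to 0.34 in KO, with a difference of log2 0.03 (SE 0.18) that was -0.20 for KO animals 11 and 12 alone. In both, KO animal 11 was the lowest animal and the groups overlapped.

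The 3 retinaldehyde dehydrogenases differed in the sign of their KO-minus-WT values. Aldh1a3 (Entrez gene 56847, chromosome 7) was higher in KO in each of its 3 probe sets, Aldh1a1 was lower, and Aldh1a2 differed least. In probe set 1417642_at Aldh1a3 read -0.12, -0.78 and -0.08 in WT animals 2, 3 and 4 and 0.53, 0.70, -0.19 and 0.08 in KO animals 8, 10, 11 and 12, a difference of log2 0.61 (SE 0.25). In 1448789_at it read -0.06, -1.02 and -0.32 in WT and 0.52, 0.87, -0.56 and 0.26 in KO, a difference of log2 0.74 (SE 0.34). KO animal 11 lay among the WT animals in both.

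In the third Aldh1a3 probe set, 1427395_a_at, the values were -0.24, -0.62 and -0.28 in WT and 0.39, 0.81, -0.11 and 0.33 in KO. Here every KO animal lay above every WT animal, by 0.13 at the closest, and the difference was log2 0.73 (SE 0.21). The 3 probe sets agreed on the extremes, with KO animal 10 highest in each and WT animal 3 lowest in each. For KO animals 11 and 12 alone, the differences were log2 0.27, 0.32 and 0.49, against 0.61, 0.74 and 0.73 with all KO animals. Without WT animal 3 the first and second probe sets gave log2 0.38 and 0.46. Without KO animal 11 the 3 probe sets gave log2 0.76, 1.02 and 0.89. The values of KO animals 8 and 10, the animals with high hair genes, were the 2 highest in each probe set.

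Aldh1a3 shares chromosome 7 with Mfge8, the gene disrupted in the KO animals, and 33 protein-coding genes lie between them in the RefSeq order. Of these, 30 had a probe set of their own, and 0 passed an adjusted p of 0.05, against 0.0824% of all genes. At that share a count of 0 among 30 was nearly fixed in advance, and nothing is read from it. Lower in KO were 21 of the 30, against 8928 of all 18193 genes, and their median difference was log2 -0.05. The direct neighbours of Aldh1a3 on either side are Lrrk1 and Asb7. The part of its position on the chromosome of Mfge8 in the Aldh1a3 difference was not tested.

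Aldh1a1 (probe set 1416468_at, Entrez gene 11668, chromosome 19) read 0.03, 0.40 and -0.02 in WT animals 2, 3 and 4 and -0.32, -0.47, -0.23 and 0.02 in KO animals 8, 10, 11 and 12. KO animal 12 reached the WT range and the other KO animals lay below it. The difference was log2 -0.39 (SE 0.15), log2 -0.24 for KO animals 11 and 12 alone, and log2 -0.25 without WT animal 3. It was log2 -0.46 without WT animal 4 and log2 -0.47 without KO animal 12. Both Aldh1a1 and Rbp4 were highest in WT animal 3 and lowest in KO animal 10.

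Aldh1a2 (probe set 1422789_at, Entrez gene 19378, chromosome 9) read -0.32, -0.45 and 0.30 in WT and -0.08, 0.41, 0.08 and 0.14 in KO. Its groups overlapped, with WT animal 4 above 3 of the 4 KO animals, and the difference was log2 0.30 (SE 0.20). It was log2 0.15 without WT animal 3, 0.52 without WT animal 4, 0.48 with array weights, and 0.27 for KO animals 11 and 12 alone. Its lowest signal lay between log2 2 and 4, the lowest of the 3 ranges that the rounding of the values could tell apart.

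**Figure D2:**
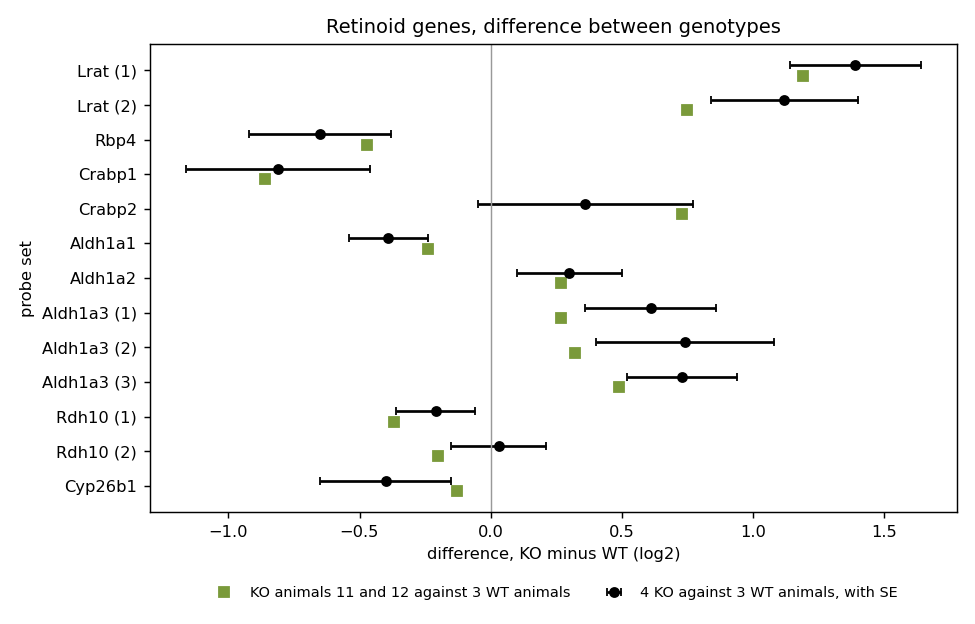
Difference between genotypes (KO minus WT, log2, horizontal axis) for each of the 13 probe sets. Black points with SE bars use 4 KO and 3 WT animals, and green squares use KO animals 11 and 12 against the 3 WT animals. Lrat lies farthest to the right in both sets of points (1.39 and 1.12 in black, 1.19 and 0.75 in green), and Crabp1 farthest to the left (-0.81 and -0.86).

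The mean of Crabp1 was lower in KO, while Crabp2 varied more within the groups than between them. Crabp1 (probe set 1448326_a_at, Entrez gene 12903, chromosome 9) read 0.68, -0.01 and 0.01 in WT animals 2, 3 and 4 and -0.96, -0.12, -1.34 and 0.07 in KO animals 8, 10, 11 and 12. KO animals 8 and 11 lay far below all others, while KO animals 10 and 12 lay beside WT animals 3 and 4. The difference was log2 -0.81 (SE 0.35), and log2 -0.86 for KO animals 11 and 12 alone. Of the KO animals with high hair genes, 8 was low and 10 was not, and of the others, 11 was low and 12 was not. Of the fibroblast list, 9 of 9 genes were lower in KO on average, with list means of -0.22 to 0.52 in WT and -0.43 to -0.01 in KO. KO animal 11 had the lowest fibroblast mean and the lowest Crabp1, and WT animal 2 the highest of each. KO animal 8, second lowest in Crabp1, had a fibroblast mean of -0.11, above WT animal 4 (-0.22), and WT animal 3 had 0.38 with Crabp1 at -0.01. The part of fibroblast content in Crabp1 was not tested.

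Crabp2 (probe set 1451191_at, Entrez gene 12904, chromosome 3) read -0.12, -1.13 and 0.24 in WT and -0.90, 0.20, 0.12 and 0.67 in KO. The spread within each group, 0.71 (SD, n = 3) and 0.66 (SD, n = 4), was larger than the difference of log2 0.36 (SE 0.41), which was log2 -0.04 without WT animal 3 and 0.65 without WT animal 4. Leaving out KO animal 12 or 8 gave log2 0.14 or 0.67, and it was log2 0.73 for KO animals 11 and 12 alone. The lowest animals, WT animal 3 and KO animal 8, also had the lowest means of 11 epidermal keratinocyte genes (-0.27 and -0.50, against -0.07 to 0.40 in the others) and of 4 wound-edge keratinocyte genes (-0.38 and -0.63, against -0.04 to 0.22). Crabp2 thus varied between animals of the same genotype along with keratinocyte markers, whose part was not tested.

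Cyp26b1 (probe set 1460011_at, Entrez gene 232174, chromosome 6), the enzyme that breaks retinoic acid down, read 0.28, 0.00 and 0.84 in WT and -0.39, -0.22, 0.00 and 0.47 in KO. The groups overlapped, with WT animal 4 highest and KO animal 8 lowest. The difference was log2 -0.40 (SE 0.25), log2 -0.17 without WT animal 4, and log2 -0.13 for KO animals 11 and 12 alone. It was log2 -0.59 without WT animal 3 and log2 -0.57 without KO animal 12.

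Across the 13 probe sets, 8 were higher and 5 lower in KO, with a median difference of log2 0.30 against 0.01 over all probe sets. None (0) passed an adjusted p of 0.05 (limma with Benjamini-Hochberg adjustment over all 45037), a threshold that 0.0444% of all probe sets passed. At an unadjusted p under 0.05 there were 7 of the 13, against 7.39% of all. In 3 probe sets every KO animal lay above every WT animal, as in 3.23% of all, and in 0 every KO animal lay below, as in 4.54% of all. Since this contrast was among the grounds for choosing the genes, nothing is read from these counts.

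**Figure D3:**
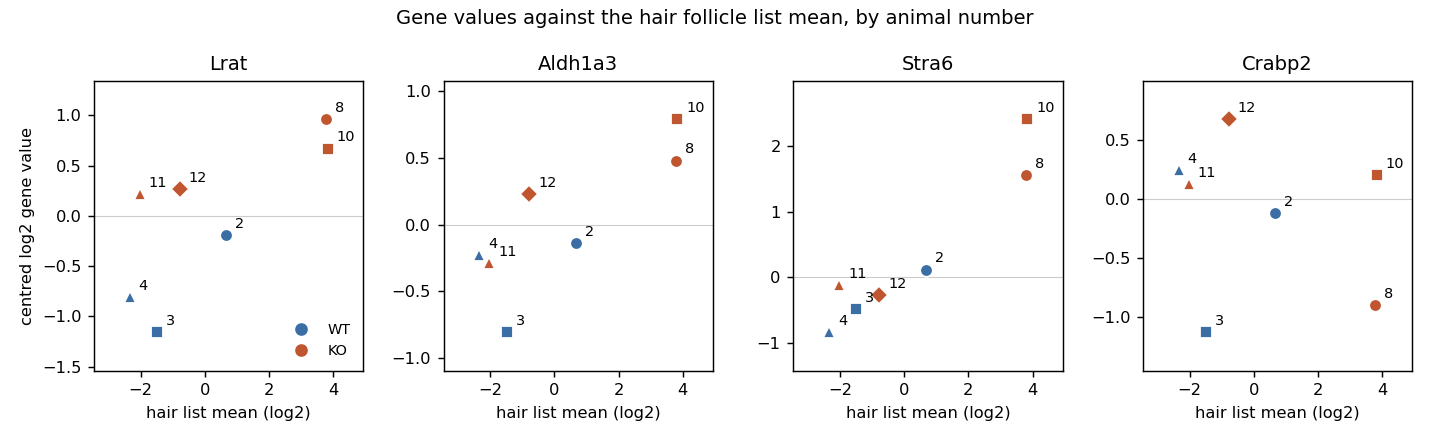
Gene value (centred log2, vertical axis; mean over the probe sets of a gene) against the mean of 24 hair follicle genes (log2, horizontal axis) for each animal, labelled by its number, WT in blue and KO in orange. KO animals 8 and 10, at hair list means of 3.78 and 3.83, have the highest values of Lrat, Aldh1a3 and Stra6. In Lrat, KO animals 11 and 12 (0.22 and 0.27) also lie above the WT animals (-1.16 to -0.19), and Crabp2 is low in KO animal 8 (-0.90) and high in KO animal 10 (0.20).

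The genes most like each member over the 7 animals were found by the root mean square distance after each gene's own mean was subtracted. For Lrat they were Micalcl (distance log2 0.15), Bicdl2 (0.24), Dapl1 (0.24), Gm14137 (0.26) and Bmp2 (0.27), where a gene with no variation at all would be at 0.71. These 5 had higher means in KO, by log2 0.93 to 1.29, and in each the highest animals were KO animals 8 and 10. Both traits follow from choosing them by nearness to Lrat. Aldh1a3 was the member nearest to Lrat, at 0.37. The genes nearest to Aldh1a3 were Sox9 (0.10), which encodes a transcription factor of hair follicle and cartilage cells, Ccser1 (0.12) and Catsperz (0.14), and a flat gene would be at 0.49.

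For Rbp4 the nearest were Pwwp3b (0.14), the semaphorin receptor gene Plxnd1 (0.16) and the VEGF receptor gene Kdr (0.18), against 0.49 for a flat gene. For Crabp1 they were Tgfb1i1 (0.22), the hyaluronan synthase gene Has2 (0.26) and Sirpb1a (0.27), against 0.63. For Crabp2 they were Lypd3 (0.17), stratifin (Sfn, 0.18) and the laminin subunit gene Lamb3 (0.19), against 0.60. These differed between genotypes by log2 0.11, 0.28 and 0.07, against 0.36 for Crabp2.

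Cyp26b1 was nearest to Socs1 (0.11), Col23a1 (0.12) and the AP-1 subunit gene Fosl1 (0.13), against 0.39 for a flat gene. Aldh1a2 was nearest to the heat shock gene Hspa1b (0.10), syndecan-1 (Sdc1, 0.11) and Dynll1 (0.11), against 0.29. Aldh1a1 (Gstt2 at 0.04, Syn1 at 0.05 and Plcb4 at 0.06, against 0.26) and Rdh10 (3110082I17Rik at 0.03, Ube2j1 at 0.04 and Zfp263 at 0.06, against 0.19) varied so little that many genes lay close to them. With 7 animals and 18193 genes, near patterns are easily found, and these names are a description.

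The rest of the pathway was read from 56 other genes in 5 role groups, of which 48 had a probe set of their own. None (0) of the 48 passed the adjusted p of 0.05 in any of their 85 probe sets, where 0.0824% of all 18193 genes had a passing probe set. At an unadjusted p under 0.05 there were 15 of the 85 probe sets (17.6%, against 7.39% of all probe sets). They lay in 6 genes, of which 2 were higher and 4 lower in KO. Of the 85, 6 were of Tgm2, 4 of Ttr and 3 of Rarres2, and repeat probe sets of 1 gene are not separate readings. No share over all genes is given here for the 6, so nothing is read from these counts. By gene value 22 of the 48 were higher and 26 lower, with a median of log2 -0.05 against 0.00 over all genes. Differences ran from log2 -0.78 to 1.30. In 0 of the 48 genes every KO animal lay above every WT animal, against 3.33% of all genes, and in 4 (8.33%) every KO animal lay below, against 5.13%. Those 4, named after their values were seen, were Dgat1, Rara, Rarres2 and Tgm2.

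Among uptake and ester genes (9 measured, 3 higher and 6 lower), Stra6, the RBP4 receptor, had the largest difference of all at log2 1.30 (SE 0.62). It read 0.12, -0.49 and -0.84 in WT animals 2, 3 and 4 and 1.56, 2.41, -0.12 and -0.27 in KO animals 8, 10, 11 and 12. The excess lay in the animals with high hair genes, and for KO animals 11 and 12 alone the difference was log2 0.21. Dgat1, an acyltransferase that can also esterify retinol, read 0.19 to 0.70 in WT and -0.29 to 0.16 in KO, a difference of log2 -0.51 by gene value and -0.42 for KO animals 11 and 12 alone. Ttr, the partner of RBP4 in blood, was at log2 -0.66 (-0.54 for these 2 animals), with WT animals 2 and 3 (0.79 and 1.37) above all others. Rbp2, an intracellular retinol binding protein gene, varied most within groups among these 9, from -1.80 to 0.46 in WT and from -3.19 to 0.67 in KO.

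Genes of retinol and retinaldehyde redox and of carotene cleavage were even, with 11 higher and 11 lower and a median of log2 -0.02. The largest differences were those of Bco1, which cleaves beta-carotene to retinaldehyde (log2 0.64, SE 0.19), with -0.46 to 0.05 in WT and -0.05 to 0.62 in KO, and Rdh12 (log2 -0.40), with -0.14 to 0.37 in WT and -0.87 to 0.15 in KO. For KO animals 11 and 12 alone Bco1 was at log2 0.44 and Rdh12 at -0.04, its lowest value being that of KO animal 8. The reductase Dhrs3, which returns retinaldehyde to retinol, was at log2 0.08. Of breakdown and transport genes, the hydroxylase gene Cyp26a1 was at log2 0.10 and Fabp5, whose protein can carry retinoic acid, at log2 0.13.

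The nuclear receptors and co-regulators (8 measured, 3 higher and 5 lower) ranged from Ppard at log2 -0.46 to Rxra at log2 0.11. For KO animals 11 and 12 alone these were at log2 -0.01 and 0.34, and KO animal 8 was the lowest of all animals in both (-1.44 and -0.34). Rara read 0.01 to 0.27 in WT and -0.41 to -0.01 in KO, a difference of log2 -0.27 (SE 0.13) in which the groups nearly touch, and -0.16 for KO animals 11 and 12 alone. Rarb and Rarg were at log2 -0.24 and 0.04.

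Genes known to respond to retinoic acid showed no common direction, with 6 of 11 measured higher and 5 lower and a median of log2 0.08. Rarres2, which encodes the attractant chemerin, read 0.21 to 0.39 in WT and -0.70 to -0.07 in KO (log2 -0.78 by gene value). Tgm2, a crosslinking transglutaminase, read 0.32 to 0.46 in WT and -0.55 to -0.10 in KO (log2 -0.76). For KO animals 11 and 12 alone Rarres2 was at log2 -0.91 and Tgm2 at -0.64. Several cell type lists were also lower on average in KO: endothelial genes (10 of 10), neutrophil genes (5 of 5, list means 0.21 to 0.67 in WT and -0.31 to -0.08 in KO) and macrophage genes (9 of 9, -0.04 to 0.32 and -0.57 to 0.06). Their part in Rarres2 and Tgm2 was not tested. Both genes were lower, while Lrat and Stra6, which also respond to retinoic acid in other settings, had higher means. Rarb, Cyp26a1 and Dhrs3 lay between log2 -0.24 and 0.10. Hoxa5, Rarres1 and Stra8 were at log2 0.35, 0.27 and 0.25, and Hoxa4 and Hbegf at -0.29 and -0.25. For KO animals 11 and 12 alone they were, in the same order, at log2 0.50, 0.63, 0.22, 0.06 and -0.17.

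**Figure D4:**
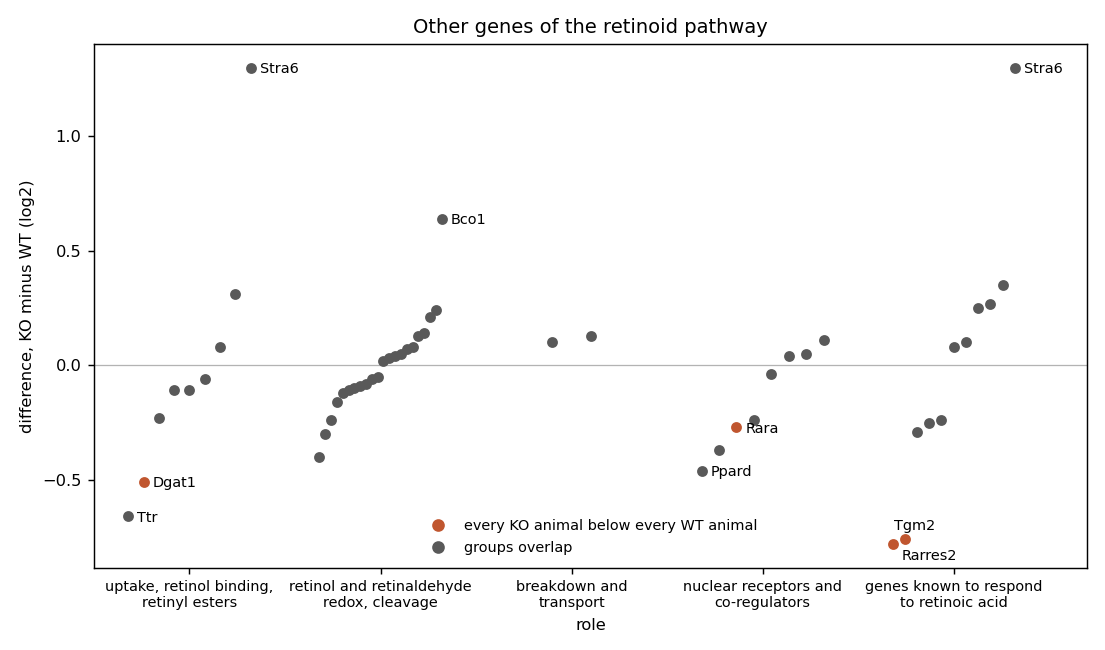
Difference between genotypes (KO minus WT, log2, vertical axis) of the 48 other retinoid genes by role, 1 point per gene and role, with genes in 2 roles drawn in each. Orange points are genes in which every KO animal lies below every WT animal (Dgat1, Rara, Rarres2 and Tgm2), grey points are genes whose groups overlap, and Stra6 (log2 1.30) and Bco1 (log2 0.64) are the highest.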

How the data were processed

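The deposited values were log2 values made by the authors with GCRMA, per the submitters' processing notes. The version and chip definition are not given in the sources used here, and base 2 was assumed because GCRMA returns it. In 72.5% of probe sets 2 neighbouring middle values of the 7 arrays summed to 0 (tolerance 1e-06), as after subtraction of a median over an even number of arrays, so the table holds no levels. The rounding of the values gave a coarse range of each signal (97.1% right in simulated data).

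Of 45101 probe sets, 64 controls were left out. The platform annotation gave 34945 of the other probe sets 1 symbol, 932 several and 9160 none. Differences and standard errors came from limma 3.58.1 (lmFit, eBayes) in R 4.3.3, KO (4) against WT (3), without covariates, with Benjamini-Hochberg adjustment. On simulated arrays of this size with 45037 probe sets the fit recovered 57% of changes of log2 1 and 95% of log2 2, and 5.6% of its calls were wrong. The simulated noise was normal and independent between probe sets. It lacked variation shared between genes, such as that of the hair list, so these rates need not hold for the real arrays. A gene value is the mean of its 1-symbol probe sets in the highest recovered range. Tables and plots used Python 3.11.15, pandas 2.3.3, numpy 2.4.6 and matplotlib 3.10.9. The number of arrays limits the precision, and p-values weigh a difference between genotypes against the spread between these animals.

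The members and lists were chosen with earlier results of these data known. Named are all member probe sets and the 3 genes (5 for Lrat) nearest to each member. Of the other retinoid genes, those that pass or differ most in each direction within a role are named. Those whose groups do not overlap, and some further ones such as Rbp2, Dhrs3, Rarb and Rarg, were added outside that rule with their values known. Alternatives were quantile normalization, centring, array weights, robust eBayes or a trend, a signal of at least log2 4, fewer probe set types, the hair list as a covariate, looser thresholds, gene values from every probe set, and fits without single animals or without KO animals 8 and 10.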

Additional observations from a re-analysis of the deposited data

How the results depend on the processing

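No member probe set (0 of 13) passed the adjusted p of 0.05 under any of 16 alternatives, of which those on signal and probe set type tested 12 and 10 of them. Of 204 recomputed member differences, 0 moved by more than 1 SD between animals of a group (the residual SD of that probe set). Several moved by more than their SE. The count of 0 was largely fixed in advance and nothing is read from it. A trend, robust eBayes and the limits on signal and probe set type leave a difference unchanged. Leaving out 1 animal cannot move it by 1 SD with groups of this size. Of the 13 probe sets, 11 kept their sign throughout. The exceptions were Crabp2, at log2 -0.04 without WT animal 3, and the Rdh10 probe set 1460632_at, which changed sign in 5 alternatives (log2 -0.20 to 0.18 over all). Lrat ranged from log2 1.16 to 1.66 in its first probe set and from 0.75 to 1.38 in its second, and leaving out 1 animal gave 1.16 to 1.66 and 0.91 to 1.38. Its adjusted p by limma ranged from 0.0976 (array weights) to 0.597 in the first probe set. In the second the limma adjusted p ranged from 0.142 (array weights) to 0.907. Of the other retinoid genes, 0 passed in the main fit with all animals, and 1 (Tgm2, lower in KO) passed with array weights. When 1 animal was left out, 0 to 1 passed (Ttr, without WT animal 4). The share of all genes that passed with array weights or without 1 animal is not given here. Without adjustment 6 of the other retinoid genes had a limma p under 0.05 in at least 1 probe set. The share of all genes doing so is not given here, and nothing is read from this count. Array weights lean on KO animal 10 (weight 2.89, against 0.43 to 1.53 for the other arrays). No paired analysis was possible because the groups share no animal number. The labels name no batch, and with 3 against 4 arrays a change of log2 1 is missed in a large share of simulated probe sets.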
